A study of Mus musculus with 10 samples.

Results

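The 4 MEF2 transcription factor genes (Mef2a, Mef2b, Mef2c and Mef2d) and the 4 class IIa histone deacetylase (HDAC) genes (Hdac4, Hdac5, Hdac7 and Hdac9) were examined in mouse mammary tumors with and without targeting of Taz. These 8 genes are all members of both families in the mouse, of 17864 genes in the count table. Both families were selected on the difference in Mef2a level between sgTaz and sgCon tumors, the measured value known when they were chosen. Values of this contrast are therefore given for the members as a description, without p-values.

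RNA was sequenced from 10 whole tumors grown from 4T1, a mouse mammary carcinoma line that models triple-negative breast cancer. All of the 4T1 cells had received Cas9, with a control guide (sgCon, labelled sgControl, 5 tumors) or with a guide against Taz (sgTaz, 5 tumors). Taz is the common name of Wwtr1, a coactivator of the TEAD transcription factors at the end of the Hippo pathway. The constructs were lentiviral, and the methods of the study describe injection into mammary fat pad 4 of female SCID or BALB/c mice of 6 to 8 weeks. Which host the sequenced tumors came from, and whether the targeted cells were a clone or a pool, is not given in the sources used here. Taz was targeted in the injected cells and not in the host, whose cells are part of each tumor. Because the RNA came from whole tumors, fewer cells of a type and less RNA per cell cannot be told apart.

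MEF2 proteins bind an A/T-rich element as dimers and switch on genes of muscle, neurons, endothelium and lymphocytes. Class IIa HDACs bind MEF2 on DNA and bring in a corepressor complex that contains HDAC3, which silences the target. Kinases of the CaMK, PKD, SIK and MARK groups phosphorylate the class IIa HDACs, 14-3-3 proteins then carry them out of the nucleus, and MEF2 is released. Calcineurin, p300 and the MAP kinases p38 and ERK5 act on the side of activation. MEF2 genes are themselves known targets of MEF2, as are Jun, Klf2, Nr4a1 and Hdac9, which makes the system a feedback loop.

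In the mouse genome (mm10, GENCODE M21) Mef2a lies at chr7:67231163-67372858 on the minus strand, Mef2b at chr8:70139711-70167488 on the plus strand, Mef2c at chr13:83504034-83667080 on the plus strand and Mef2d at chr3:88142372-88172086 on the plus strand. Hdac4 lies at chr1:91928779-92195699, Hdac5 at chr11:102194432-102230166, Hdac7 at chr15:97792664-97844502 and Hdac9 at chr12:34047580-34917095, all on the minus strand. The 8 genes are thus on 8 chromosomes.

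The promoters of Mef2a and Hdac5 are shown because both hold the same form of the MEF2 element, CTAAAAATAG, close to the start site, on one strand or the other. Jun and Klf2, MEF2 targets named further on, are shown for comparison. The sequences are the RefSeq promoter windows of GRCm38.p6, read 5′ to 3′ along the gene, with the match to the MEF2 consensus in capitals. The Mef2a run is chr7:67372829-67373108 on the minus strand, the Hdac5 run chr11:102230143-102230422 on the minus strand, the Jun run chr4:95052218-95052277 on the minus strand and the Klf2 run chr8:72318932-72318991 on the plus strand.
Mef2a: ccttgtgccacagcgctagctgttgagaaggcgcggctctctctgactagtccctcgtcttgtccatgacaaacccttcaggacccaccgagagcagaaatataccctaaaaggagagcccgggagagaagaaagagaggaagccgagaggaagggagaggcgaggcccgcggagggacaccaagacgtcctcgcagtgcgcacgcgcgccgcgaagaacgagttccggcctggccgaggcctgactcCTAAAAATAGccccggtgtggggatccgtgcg
Hdac5: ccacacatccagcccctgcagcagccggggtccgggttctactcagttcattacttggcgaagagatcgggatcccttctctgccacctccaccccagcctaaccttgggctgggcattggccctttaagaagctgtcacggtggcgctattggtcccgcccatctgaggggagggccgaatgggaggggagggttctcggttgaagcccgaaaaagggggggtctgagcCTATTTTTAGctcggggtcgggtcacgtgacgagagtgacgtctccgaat
Jun: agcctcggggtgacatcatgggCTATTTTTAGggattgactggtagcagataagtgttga
Klf2: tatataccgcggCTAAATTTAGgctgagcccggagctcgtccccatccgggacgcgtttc
In Mef2a the element covered bases -2 to 8 around the annotated start, where 1 is the first transcribed base (chr7:67372851-67372860). In Hdac5 it lay in the opposite orientation at bases -20 to -11 (chr11:102230183-102230192). The Jun element lay at -33 to -24 and the Klf2 element, which matched the consensus and not the form in Mef2a, at -118 to -109. These are matches of letters, and binding was not measured.

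The form of the element in Mef2a, which Mef2a therefore matches by construction, was found in 36 of 32851 promoter windows of 300 bases (0.11%), searched on both strands, and in 2 of the 14 windows of the 8 genes. The looser MEF2 consensus, which includes this form, was found in 1047 windows (3.19%) and, among the 8 genes, again in Mef2a and Hdac5. The core of the TEAD motif, GGAATG, was found in 4817 windows (14.7%), including 1 of the 3 windows of Mef2c and 2 of the 4 windows of Hdac7, and in none of the windows of the other 6 genes. Of 14 tested genes with that form in a window, 7 had a log2 fold change above 0 and 7 below. Of 237 tested genes with the consensus, 120 lay above 0 and 117 below, with a median log2 fold change of 0.014.

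Total counts per tumor ranged from 14753922 to 19595821 in sgCon and from 12185383 to 18395558 in sgTaz. Wwtr1 itself stood at 192, 181, 115, 171 and 156 CPM (counts scaled to library size, normalized by TMM) in sgCon tumors 1 to 5 and at 86.6, 104, 109.9, 139 and 102 CPM in sgTaz tumors 1 to 5. The mean was lower in sgTaz, but the groups overlapped, since sgCon 3 lay below sgTaz 4. A guide that disrupts the reading frame need not remove the transcript, so this level is only a partial check of the labels. A pair of tumors stood apart in lymphoid markers. The summed level of 12 B cell genes was 1157 CPM in sgCon 3 against 88.9 to 542 CPM in the other sgCon tumors. In sgTaz 5 it was 277 CPM against 9.17 to 30.8 CPM in the other sgTaz tumors. For the 7 members that could be fitted and the named pathway genes, differences are therefore also given without sgCon 3 and sgTaz 5.

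Mef2a, the most broadly expressed of the MEF2 genes, was the one member whose groups did not overlap. It stood at 115, 122, 118, 109 and 105 CPM in sgCon tumors 1 to 5 and at 171, 153, 187, 167 and 150.03 CPM in sgTaz tumors 1 to 5. The lowest sgTaz tumor was above the highest sgCon tumor. The mean was 114 ± 6.79 CPM (SD, n = 5) in sgCon and 166 ± 15.1 CPM (SD, n = 5) in sgTaz, 45.3% higher. The log2 fold change by edgeR was 0.54 ± 0.076 (SE), and 0.60 ± 0.089 without sgCon 3 and sgTaz 5. Every sgTaz tumor lay above every sgCon tumor for 2.44% of the 14816 genes tested. Since this contrast led to the choice of the family, nothing further is read from the separation. The exons of Mef2a share 302 bases (2.06%) with Lysmd4 on the other strand.

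Mef2d, which is expressed in most tissues alongside Mef2a, differed in the other direction. It stood at 101, 106, 154, 111 and 149 CPM in sgCon tumors 1 to 5 and at 97.8, 93.0, 101.2, 97.6 and 105 CPM in sgTaz tumors 1 to 5. The sgTaz tumors were closely grouped, and the groups overlapped at the lower end of sgCon. The spread was 4.55 CPM (SD) in sgTaz and 25.1 CPM in sgCon, where tumors 3 and 5 were high. The log2 fold change was -0.32 ± 0.12, and -0.24 ± 0.12 without sgCon 3 and sgTaz 5. An antisense gene, 1700113A16Rik, overlaps 8.87% of its exon bases.

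Mef2c, known for its part in B cell, endothelial and muscle development, varied widely within both groups. In sgCon tumors 1 to 5 it measured 29.4, 38.4, 76.4, 29.4 and 48.6 CPM, and in sgTaz tumors 1 to 5 24.4, 12.7, 30.5, 36.9 and 44.0 CPM. The groups overlapped over most of their range, and the highest tumor was sgCon 3. The log2 fold change of -0.58 ± 0.34 became -0.46 ± 0.29 without sgCon 3 and sgTaz 5, and -0.29 without sgCon 3 alone.

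Mef2b, which in the immune system marks germinal center B cells, had few counts in most tumors and did not pass the filter on low counts. Its counts were 9, 9, 65, 11 and 16 in sgCon tumors 1 to 5 and 1, 2, 1, 3 and 14 in sgTaz tumors 1 to 5. Only sgTaz tumor 5 exceeded the floor of 3 counts in its group, and only sgCon 3 exceeded 16 counts in either group. On the CPM scale these 2 tumors stood at 1.02 and 4.05, and the groups overlapped. Without a filter the fitted log2 fold change was -2.15 ± 0.85, which is given as fitted and not as a bound. The exons of Mef2b share 62 bases with Borcs8 on the same strand.

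**Figure D1:**
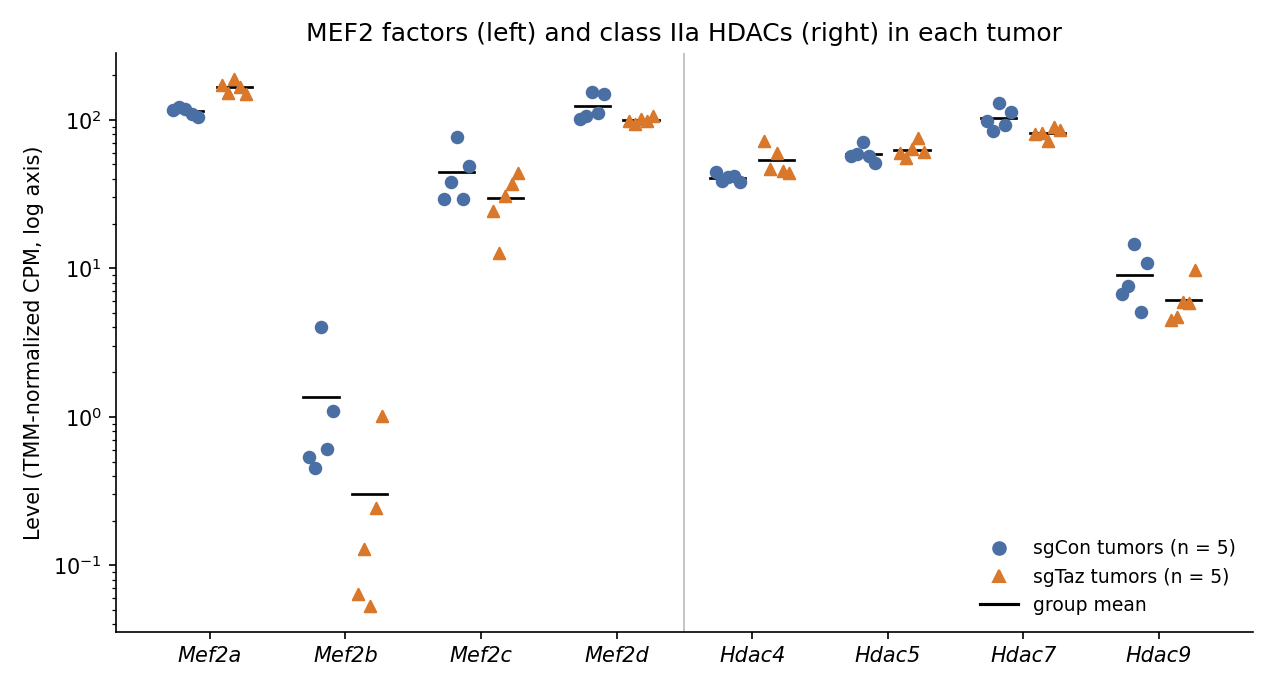
Level of the 4 MEF2 genes and the 4 class IIa HDAC genes in each tumor, in CPM on a log axis, for sgCon (circles, n = 5) and sgTaz (triangles, n = 5), with a line at each group mean. Mef2a is the one gene for which all 5 sgTaz tumors (150.03 to 187 CPM) lie above all 5 sgCon tumors (105 to 122 CPM).

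Among the class IIa HDACs, Hdac4, a signal-dependent repressor of MEF2 studied most in bone, heart and muscle, was nearest to separate groups. It measured 44.3, 38.5, 41.0, 41.6 and 38.3 CPM in sgCon tumors 1 to 5 and 72.4, 46.3, 60.003, 45.4 and 43.5 CPM in sgTaz tumors 1 to 5. The groups overlapped only through sgTaz 5, which lay below sgCon 1. Its spread was 2.47 CPM (SD) in sgCon and 12.4 CPM in sgTaz, where tumors 1 and 3 were high. The log2 fold change was 0.39 ± 0.14, ranged from 0.26 without sgTaz 1 to 0.46 without sgTaz 5, and was 0.48 ± 0.15 without sgCon 3 and sgTaz 5. In the annotation, 22.4% of the exon bases of Hdac4 overlap Gm26720, a non-coding gene on the other strand, and whether the counting used strand is not given in the sources used here.

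Hdac7, which is known for its roles in endothelium, thymocytes and early B cells, was lower in the mean in sgTaz tumors. It measured 97.4, 83.9, 129.6, 92.3 and 113 CPM in sgCon tumors 1 to 5 and 80.0, 81.9, 71.6, 89.3 and 85.6 CPM in sgTaz tumors 1 to 5. As for Mef2d, sgCon tumors 3 and 5 were the highest and the sgTaz tumors were closely grouped. The log2 fold change was -0.34 ± 0.12, and -0.24 ± 0.10 without sgCon 3 and sgTaz 5.

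Hdac5, which is close to Hdac4 in its regulation by kinases, ranged from 51.5 to 70.7 CPM in sgCon and from 55.0 to 75.8 CPM in sgTaz. The groups overlapped almost throughout, with a log2 fold change of 0.09 ± 0.11, and 0.19 ± 0.11 without sgCon 3 and sgTaz 5. Hdac9, whose MITR isoform lacks the catalytic domain, measured 6.73, 7.61, 14.6, 5.05 and 10.9 CPM in sgCon tumors 1 to 5. In sgTaz tumors 1 to 5 it measured 4.52, 4.71, 5.89, 5.83 and 9.75 CPM. The highest tumor of each group was sgCon 3 or sgTaz 5, the pair that was also highest in B cell genes. Its log2 fold change of -0.55 ± 0.30 was -0.51 ± 0.24 without both of these tumors, -0.29 without sgCon 3 alone and -0.77 without sgTaz 5 alone.

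**Figure D2:**
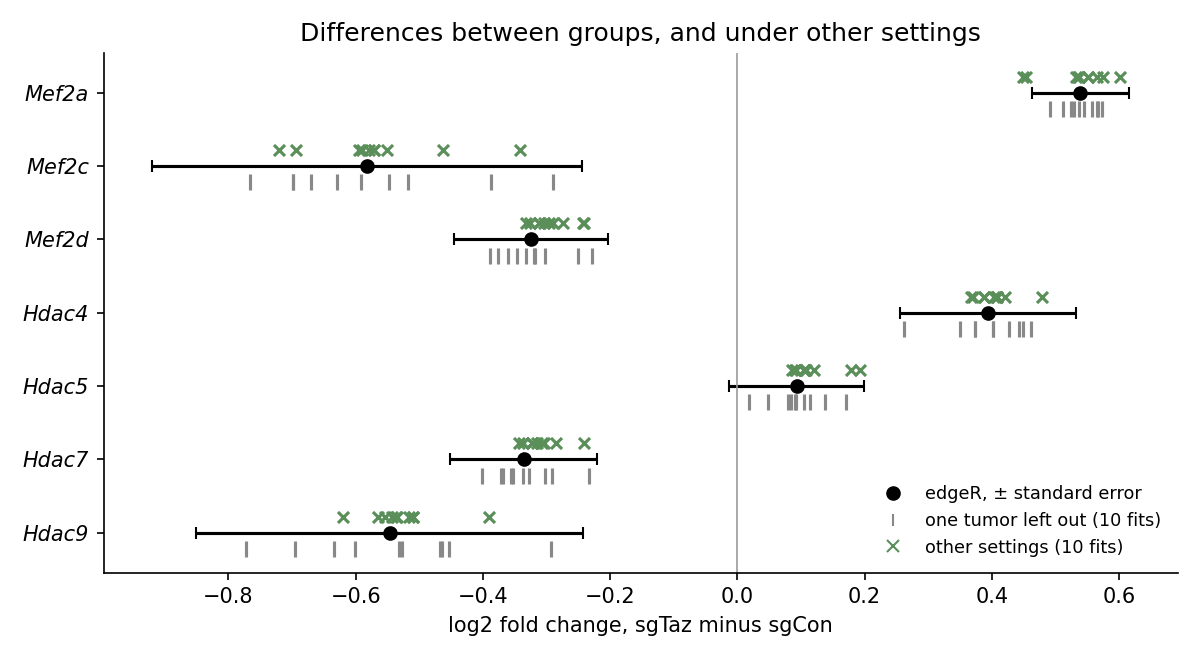
Log2 fold change (sgTaz minus sgCon) of the 7 genes that passed the filter on low counts, with the edgeR estimate and its standard error (black), 10 fits that each leave out one tumor (grey ticks) and 10 fits with other settings (green crosses). Mef2a and Hdac4 stay above 0 and Mef2c, Mef2d, Hdac7 and Hdac9 stay below 0 in every fit shown, while Hdac5 stays between 0.02 and 0.19.

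Of the 7 genes that passed the filter, edgeR's quasi-likelihood test with Benjamini-Hochberg adjustment called 0, and 2 were higher and 2 lower at an unadjusted p below 0.05. Over all genes it called 0.00675% as higher (1 gene, Tmx4, which is named because it was the only one) and 0% as lower, and 9.86% and 11.9% lay below 0.05 unadjusted. DESeq2, the tool named in the methods of the study, counted 1 of the 7 as higher in sgTaz, against 3.6% of all genes called as higher and 3.63% as lower (7.22% in all). Limma-voom also counted 1 as higher, against 4.63% and 5.8% of all genes (10.4% in all). The median log2 fold change of the 7 genes was -0.32, against -0.02 over all genes tested. By both tools the gene counted was Mef2a, whose difference led to the choice of the families, so these counts restate the selection and nothing is read from them.

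Levels of different genes were compared per length of transcript, as FPKM, here CPM divided by the length of the union of the exons in kilobases. The order by the median over 10 tumors was Mef2d (17.2 FPKM), Hdac7 (12.95), Mef2a (9.26), Hdac5 (6.70), Hdac4 (2.78), Mef2c (2.15), Hdac9 (0.430) and Mef2b (0.353). Thus Mef2d, Hdac7 and Mef2a had the highest medians, and Hdac9 and Mef2b the lowest. Of the 7 pairs of neighbours, 5 differed beyond their spread in an exact two-sided permutation test of the log2 ratio within tumors, with p-values adjusted over the 7 pairs. These 5 include the pairs with Mef2a, whose pooled ratios take in the contrast on which the families were chosen. Mef2d was above Hdac7 in 10 of 10 tumors, by 0.44 ± 0.13 on the log2 scale (SD, n = 10; adjusted p = 0.00456, exact permutation test; the smallest unadjusted p these tumors allow is 0.00195). Hdac7 was above Mef2a in 9 of 10 tumors, by 0.53 ± 0.51 on the log2 scale (SD, n = 10; adjusted p = 0.0191, exact permutation test). The mean log2 ratio of this pair was 0.96 in sgCon and 0.10 in sgTaz. The order of this pair depended on the length used. With the longest transcript as length, the log2 ratio of Hdac7 to Mef2a over all 10 tumors was -0.49 (adjusted p = 0.0251, exact permutation test). Hdac7 was then above Mef2a in 2 of 10 tumors, and Mef2a had the highest median of the 8 genes. A change of length shifts this ratio alike in every tumor, so the gap between the group means stays. Both pooled ratios of this pair thus take in the contrast on which the families were chosen, and no order is read from them.

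Mef2a was above Hdac5 in 9 of 10 tumors (log2 ratio 0.44 ± 0.28, SD). In sgCon the mean log2 ratio of this pair was 0.22, with Mef2a above in 4 of 5 tumors. In sgTaz it was 0.66, with Mef2a above in 5 of 5. The pooled ratio of this pair also takes in the contrast on which the families were chosen, so no order is read from it. Hdac5 was above Hdac4 in 10 of 10 tumors (1.24 ± 0.32) and Mef2c above Hdac9 in 10 of 10 (2.16 ± 0.34). Hdac4 and Mef2c could not be ordered beyond their spread (log2 ratio 0.45 ± 0.85, SD, n = 10; adjusted p = 0.141, exact permutation test). The mean log2 ratio of this pair was -0.04 in sgCon, with Hdac4 above in 2 of 5 tumors, and 0.93 in sgTaz, with Hdac4 above in 4 of 5. Hdac9 and Mef2b could not be ordered either (0.80 ± 1.51, SD, n = 10; adjusted p = 0.141, exact permutation test), although with the longest transcript as length Hdac9 was above Mef2b by 1.62 (adjusted p = 0.0109, exact permutation test). The mean log2 ratio of Hdac9 to Mef2b was -0.20 in sgCon and 1.81 in sgTaz.

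The makeup of each family is given as each member's share of the family's summed FPKM, a description set up after the values were seen. Mef2a made up 24.7 ± 4.76% of MEF2 FPKM in sgCon (SD, n = 5) and 37.7 ± 3.01% in sgTaz. The ranges, 19.4 to 29.1% and 32.6 to 40.3%, did not overlap. The share of Mef2d was 64.1 ± 3.26% in sgCon and 55.3 ± 1.78% in sgTaz, again without overlap. These shares depend on the length used. With the longest transcript as length, an alternative added after the data were seen, Mef2a made up 40.7 ± 6.54% in sgCon and 56.3 ± 3.83% in sgTaz, and Mef2d 44.3 ± 3.59% and 34.5 ± 1.72%. Neither gene's groups then overlapped, and Mef2a had the larger mean share of the 2 in sgTaz and Mef2d in sgCon. Shares of one family sum to a fixed total, so these are not separate results. The summed MEF2 level was 32.3 ± 6.20 FPKM in sgCon and 29.9 ± 1.92 FPKM in sgTaz, and the groups overlapped.

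In the HDAC family the share of Hdac7 was 60.4 ± 3.21% in sgCon (range 56.4 to 64.8%) and 52.5 ± 3.24% in sgTaz (range 48.2 to 56.1%), without overlap. Hdac4 made up 8.42 to 11.6% in sgCon and 11.4 to 19.5% in sgTaz, with overlap. The summed class IIa level was 25.2 ± 3.44 FPKM in sgCon and 23.1 ± 1.38 FPKM in sgTaz. With the longest transcript as length, the share of Hdac7 was 53.6 ± 3.32% in sgCon and 45.4 ± 3.34% in sgTaz, again without overlap. Ratios of CPM within a tumor do not depend on length. How often such ratios of other genes separate the groups was not tested. Mef2a over Mef2d was 0.707 to 1.15 in sgCon and 1.43 to 1.85 in sgTaz, and Hdac4 over Hdac7 was 0.317 to 0.459 in sgCon and 0.508 to 0.905 in sgTaz. Mef2a over Hdac4 (2.61 to 3.17 and 2.36 to 3.68) and Mef2d over Hdac7 (1.04 to 1.32 and 1.09 to 1.41) overlapped. The 4 pairs were picked after their values were seen, and Mef2a is the gene on which the families were chosen, so nothing is read from these ranges.

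**Figure D3:**
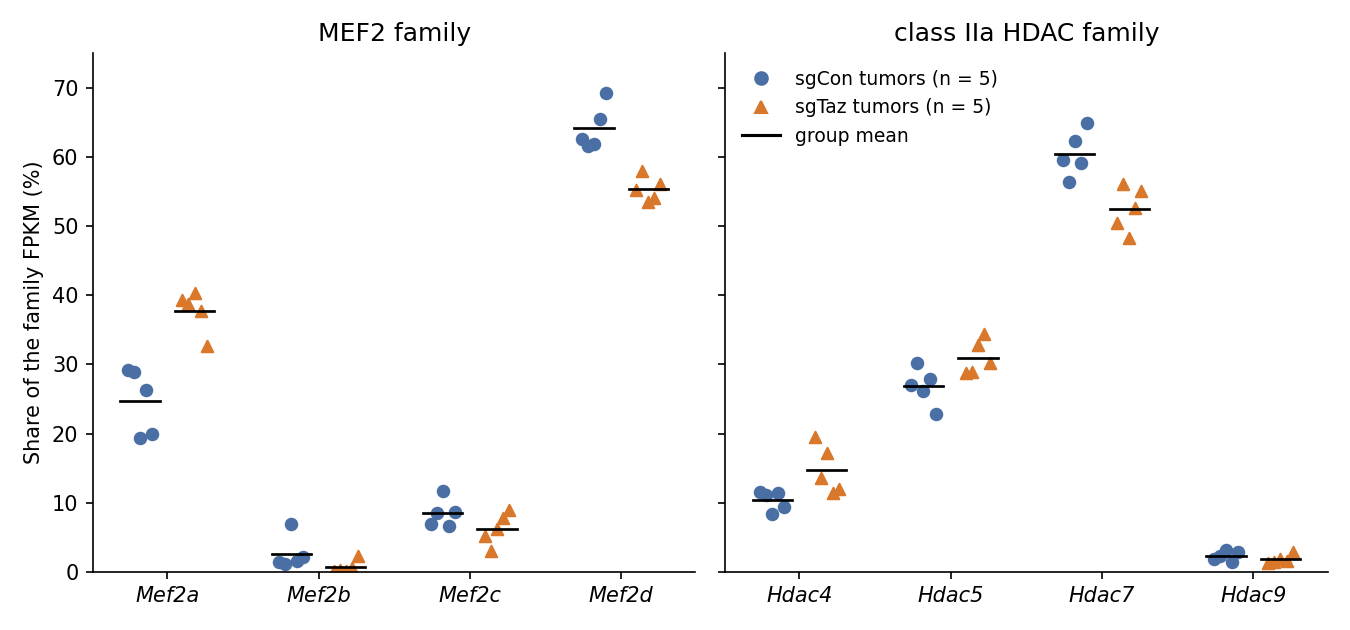
Share of each gene in the summed FPKM of its family, in percent, for the MEF2 genes (left) and the class IIa HDAC genes (right), for sgCon (circles, n = 5) and sgTaz (triangles, n = 5), with a line at each group mean. The share of Mef2a is 24.7% in sgCon and 37.7% in sgTaz on average, and those of Mef2d and Hdac7 are lower in every sgTaz tumor than in any sgCon tumor.

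Tumor-to-tumor variation was then compared with cell type markers. The group means were removed, and each of the 8 genes was correlated with the summed level of each of 10 marker lists over 10 tumors (80 pairs, p-values from 100000 permutations within groups). One pair passed adjustment over the 80. Hdac9 varied with B cell genes such as Cd79a (Pearson r = 0.941, permutation p = 0.00018, adjusted p = 0.0144; Spearman rho = 0.964, permutation p = 0.00026, adjusted p = 0.0208). The correlation was 0.918 without sgCon 3 and sgTaz 5, which lay farthest from the median B cell level. For each r without these 2 tumors, the group means removed were those of all 10 tumors and were not computed again. Such values can thus hold a remaining offset between the groups. Hdac9 varied in a like way with T cell genes (r = 0.940, adjusted permutation p = 0.0589) and with lymph node stroma and high endothelial genes (r = 0.926, adjusted permutation p = 0.0532), which missed the threshold. In all 3 lists sgCon 3 was the highest sgCon tumor and sgTaz 5 the highest sgTaz tumor, and their separate parts were not tested.

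Mef2c and Mef2b also had high values of r with the B cell genes, but did not pass adjustment. For Mef2c, r with B cell genes was 0.804 (adjusted permutation p = 0.0974) and 0.680 without the 2 tumors. With lymph node stroma and high endothelial genes it was 0.840 (adjusted permutation p = 0.0932) and 0.723 without them. For Mef2b, r with B cell genes was 0.825 (adjusted permutation p = 0.0932) but 0.243 without the 2 tumors, so the relation rested on them. Its r was 0.865 with lymph node stroma genes and 0.849 with T cell genes, but 0.234 and 0.322 without the 2 tumors. In both genes r was highest with the lymph node stroma list. For Mef2c Spearman rho was instead highest with B cell genes (0.891), against 0.867 with T cell and 0.794 with lymph node stroma genes. None of these values of rho passed adjustment. The values of Mef2b and Mef2c were thus not particular to B cells. Mef2d varied most with T cell genes (r = 0.815, adjusted permutation p = 0.0932). For Mef2a the correlation with B cell genes was -0.164 (adjusted permutation p = 0.906) and 0.249 without the 2 tumors, and none of its correlations with the 10 lists passed adjustment. Hdac4 had an r of -0.405 with the B cell genes (adjusted permutation p = 0.829), which was -0.179 without the 2 tumors. Hdac7 had an r of 0.738 with T cell genes (adjusted permutation p = 0.255), which was 0.481 without them.

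**Figure D4:**
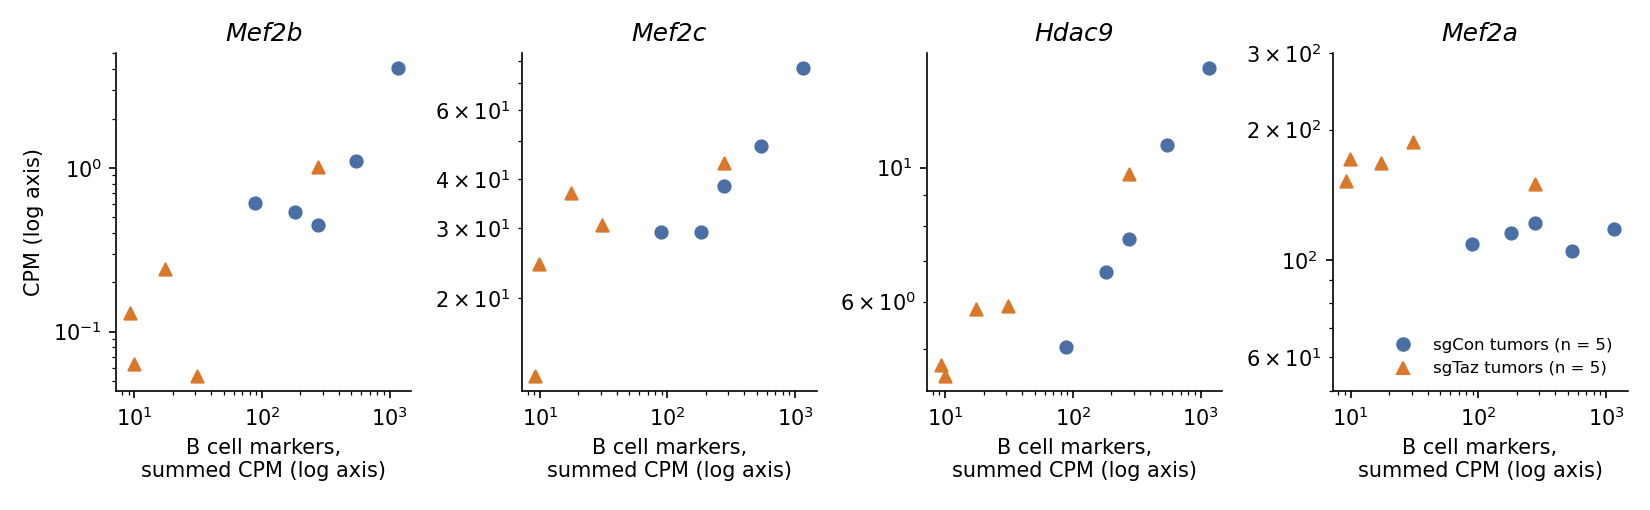
Level of Mef2b, Mef2c, Hdac9 and Mef2a in each tumor, in CPM, against the summed level of 12 B cell genes, in CPM, on log axes, for sgCon (circles, n = 5) and sgTaz (triangles, n = 5). Hdac9 is highest in the tumors with most B cell RNA (r = 0.941 after removal of group means), and the corresponding r of Mef2a is -0.164.

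The levels of the marker lists in the groups are given as ranges, without a test. The B cell genes summed to 88.9 to 1157 CPM in sgCon and 9.17 to 277 CPM in sgTaz, with 12 of 12 below 0 in log2 fold change, and Ms4a1, Cr2, Fcer2a and Blk at 0 in at least one tumor. T cell genes summed to 88.8 to 697 CPM in sgCon and 58.1 to 180.4 CPM in sgTaz (8 of 8 lower), and lymph node stroma genes to 76.5 to 827 and 44.2 to 503 CPM (4 of 6 tested lower). In sgTaz tumors 1 to 4 the 2 tested stroma genes that were not lower made up most of that sum. The stroma sum, also used in the correlations, therefore says little of the other stroma genes in those tumors. Neutrophil genes summed to 189 to 768 CPM in sgCon and 70.1 to 294 CPM in sgTaz (8 of 8 tested lower). Macrophage genes leaned the other way, with 861 to 1957 CPM in sgCon and 1687 to 2273 CPM in sgTaz (10 of 10 higher). Epithelial genes such as Krt8 and Krt18, which mark the 4T1 cells themselves, summed to 2222 to 5152 CPM in sgCon and 1645 to 3989 CPM in sgTaz (10 of 10 lower). The part of these differences in the values of Mef2b, Mef2c, Mef2d, Hdac7 and Hdac9, all lower in the mean in sgTaz, was not tested.

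Endothelial genes summed to 489 to 704 CPM in sgCon and 413 to 789 CPM in sgTaz (6 of 9 higher), and genes of fibroblasts and mural cells to 1381 to 3648 and 1461 to 3126 CPM (5 of 10 higher). Skeletal muscle genes, which matter here because muscle is rich in MEF2 targets, summed to 30.6 to 68.6 CPM in sgCon and 14.0 to 70.1 CPM in sgTaz (3 of 4 tested lower). The groups overlapped only through sgTaz 2, since the other 4 sgTaz tumors (14.0 to 20.2 CPM) lay below every sgCon tumor. In sgTaz 2 most of the sum came from Tnni2 (38.2 CPM) and Tnnt3 (30.3 CPM). Acta1 was at 0.065 CPM and Myh4 at 0 CPM in that tumor. In sgCon 3, Tnni2, Tnnt3, Acta1 and Myh4 stood at 15.3, 10.7, 9.42 and 13.7 CPM. Acta1, Myh1, Myh2, Myh4 and 4 others of the 12 muscle genes were at 0 in at least one tumor. Adipocyte genes summed to 52.0 to 98.0 CPM in sgCon and 35.4 to 191 CPM in sgTaz (6 of 6 tested higher, with a median log2 fold change of 1.41).

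The 5 genes whose variation within groups was most like that of Mef2a, of 14059 genes with a mean of at least 1 CPM, were Gaa (r = 0.948), Tbl3 (0.902), Gpatch2 (0.867), Ncstn (0.859) and Mark3 (0.859). These are correlations over 10 tumors that share libraries and depth, given as a description. Gaa is the lysosomal acid glucosidase and Ncstn a subunit of gamma-secretase, while Mark3 is one of the kinases known to phosphorylate class IIa HDACs. Their log2 fold changes between the groups were 0.26, 0.03, 0.23, 0.29 and -0.003, against 0.54 for Mef2a.

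The other genes of the pathway were taken from 5 lists. None of the genes of any list passed edgeR's test at an adjusted p below 0.05, and DESeq2 called 5. These are 7.69% of the 65 pathway genes tested, close to the 7.22% of all genes that DESeq2 called, so the count is no result about the lists. Limma-voom called 11 of the 65, a larger share than the 10.4% it called over all genes, and this difference was not tested. The 5 genes that DESeq2 called are described because they were called by that tool. The 17 MEF2 cofactors and activating inputs (p300, CBP, CARM1, calcineurin, NFAT, p38, ERK5 and others) had a median log2 fold change of -0.06, and none was called by DESeq2, with 1 higher and 1 lower at an unadjusted edgeR p below 0.05. The 2 most abundant were the calcineurin subunits Ppp3cb, at 128 ± 9.04 CPM in sgCon and 138 ± 9.53 CPM in sgTaz (SD, n = 5 each), and Ppp3r1, at 129 ± 5.84 and 136 ± 7.68 CPM. In both, the groups overlapped.

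Of the 23 kinases and binders of class IIa HDACs, 22 were tested, with a median log2 fold change of 0.02, and 3 were higher and 3 lower at an unadjusted edgeR p below 0.05. Mark2, a polarity kinase that phosphorylates class IIa HDACs, was lower in every sgTaz tumor than in any sgCon tumor. It stood at 116 ± 18.01 CPM in sgCon and 84.9 ± 3.68 CPM in sgTaz (SD, n = 5 each), a log2 fold change of -0.45, and -0.40 without sgCon 3 and sgTaz 5. Its adjusted p was 0.0906 by edgeR and 0.00584 by DESeq2, and ranged up to 0.233 over 21 fits. Camk1d, a calcium-dependent kinase named after its values were seen, stood at 39.1 ± 13.6 CPM in sgCon and 76.5 ± 27.8 CPM in sgTaz. Its groups overlapped (log2 fold change 0.97, and 1.01 without sgCon 3 and sgTaz 5; adjusted p = 0.132 by edgeR and 0.0319 by DESeq2, up to 0.285 over 21 fits). The 14-3-3 genes of this list, which carry the phosphorylated HDACs to the cytoplasm, had log2 fold changes between -0.08 (Ywhah) and 0.13 (Ywhag).

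Of 10 genes of the HDAC3 corepressor complex and its partners, the median log2 fold change was 0.08, with 2 higher and 0 lower at an unadjusted edgeR p below 0.05. Ctbp2, a corepressor that binds class IIa HDACs, was higher in every sgTaz tumor than in any sgCon tumor. It stood at 38.2 ± 5.33 CPM in sgCon and 52.4 ± 5.89 CPM in sgTaz (log2 fold change 0.45, and 0.44 without sgCon 3 and sgTaz 5; adjusted p = 0.096 by edgeR and 0.0114 by DESeq2, up to 0.233 over 21 fits). Ctbp2 shares 5.05% of its exon bases with Fgfr2 in the annotation. Hdac3, the catalytic subunit, had a log2 fold change of -0.14, and Ncor1, a scaffold of the complex, of 0.16.

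The 7 other classical HDACs all had log2 fold changes below 0, with a median of -0.14, and 0 were higher and 1 lower at an unadjusted edgeR p below 0.05. Over all genes tested, 47% had a log2 fold change above 0. Hdac10, a class IIb enzyme that acts on polyamines, was lower in every sgTaz tumor than in any sgCon tumor. It measured 15.4 ± 2.89 CPM in sgCon and 10.7 ± 1.17 CPM in sgTaz (log2 fold change -0.53, and -0.44 without sgCon 3 and sgTaz 5; adjusted p = 0.0999 by edgeR and 0.0233 by DESeq2, up to 0.294 over 21 fits). Every sgTaz tumor lay below every sgCon tumor for 2.13% of all genes tested.

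Of 15 textbook MEF2 targets, 10 were tested, and Ppargc1a, Ckm, Myog, Nppa and Xirp1 were not. The median log2 fold change was 0.07, with 2 higher and 3 lower at an unadjusted edgeR p below 0.05. Klf2, a transcription factor of quiescent endothelium and lymphocytes, stood at 39.8, 50.4, 141, 38.3 and 50.7 CPM in sgCon tumors 1 to 5 and at 31.8, 25.0, 24.8, 29.8 and 34.2 CPM in sgTaz tumors 1 to 5. No sgTaz tumor reached the lowest sgCon tumor, and sgCon 3 was far above the rest. The log2 fold change was -1.14 ± 0.34 and became -0.62 without sgCon 3 and -0.67 without sgCon 3 and sgTaz 5 (adjusted p = 0.113 by edgeR and 0.0159 by DESeq2, up to 0.258 over 21 fits). Its promoter holds the MEF2 consensus shown above. Jun, whose promoter holds the form of the element found in Mef2a, stood at 132 ± 8.52 CPM in sgCon and 156 ± 22.9 CPM in sgTaz, with overlap (log2 fold change 0.24, and 0.27 without sgCon 3 and sgTaz 5; adjusted p = 0.136 by DESeq2).

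**Figure D5:**
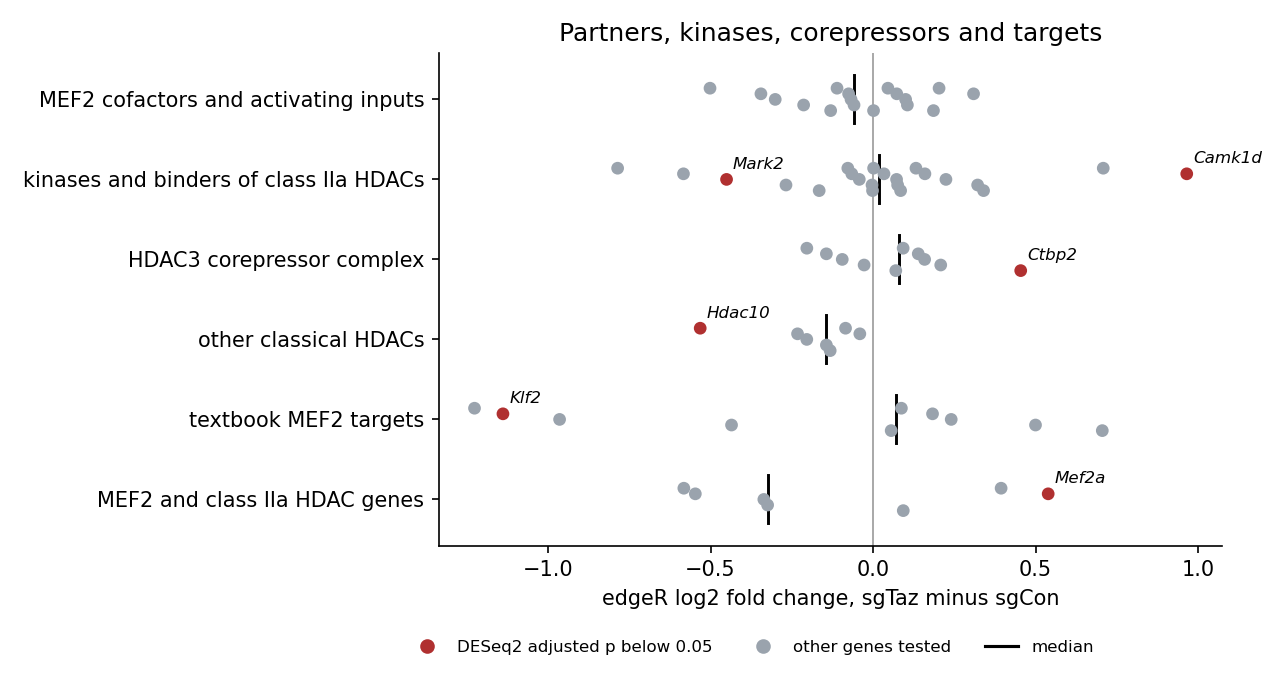
Log2 fold change (sgTaz minus sgCon) of each tested gene of 5 pathway lists and of the MEF2 and class IIa HDAC genes, with a line at each median; genes with a DESeq2 adjusted p below 0.05 are red and named. The lists center near 0 (medians from -0.14 to 0.08), and the 5 named pathway genes were not called by edgeR.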

How the data were processed

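Counts of reads per gene were deposited by the authors for whole-tumor RNA from 5 sgCon and 5 sgTaz 4T1 tumors. Per the methods of the study, reads were aligned to the mouse genome with STAR and counted with featureCounts of Subread, and the submitters' processing notes name CASAVA, STAR, Subread and GRCm38. The methods name GENCODE release 12 for the annotation. Tool versions and the strand setting are not given in the sources used here. The values are raw counts, neither normalized nor pooled, and 5 further columns of the table match none of the 10 samples and were not used.

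From these counts, TMM-normalized CPM were computed and edgeR 4.0.16 (R 4.3.3) was fitted by quasi-likelihood to the 14816 of 17864 genes that passed filterByExpr. DESeq2 1.42.0 and limma 3.58.1 (voom with sample weights) were alternatives, as were other size factors, other filters, GC and length offsets, a replicate block and leaving out each tumor. An adjusted p below 0.05 was the threshold, with Benjamini-Hochberg adjustment over all genes. FPKM used exon lengths of GENCODE M21, not the release that the methods name, and 17860 identifiers matched M21, 17673 of them with the same version. Correlations used log2 CPM with a prior count of 2. The scripts were checked on simulated data.

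The 8 genes and all lists were chosen with earlier results of these data known. Named in the text are the 8 genes, Wwtr1, up to 6 genes per pathway list whose groups do not overlap (otherwise the 2 most abundant), the 2 most abundant genes of marker lists and the 5 genes most like Mef2a. One of the marker genes and one of the corepressor genes are not reported here by name. Others were named after their values were seen, and motifs were also chosen then. The labels give tumor numbers in both groups but nothing that ties equal numbers together, so tumors were not paired. Within a group, any pair of tumors differed by more than sampling noise (chi-square per degree of freedom 6.49 to 73.2). Whether the tumors came from separate mice is not stated in the labels, and p-values measure the spread between these samples.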

Additional observations from a re-analysis of the deposited data

Results flagged for a closer look

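Within each group of 5 tumors, a tumor was singled out where its gap to the nearest other tumor exceeded 0.71 of the group's range (Dixon's 95% value). Of 36 groups of values (the 8 genes and 10 marker lists in sgCon and sgTaz), 11 had such a tumor. Independent groups of normally distributed values would give 1.8. These groups share the same 10 tumors and in part vary together, so no comparison with chance is drawn. Tumor sgCon 3 was high in Mef2b (4.05 CPM, others 0.45 to 1.10 CPM), in lymph node stroma and high endothelium genes (827 CPM, others 76.5 to 278 CPM) and in skeletal muscle genes (68.6 CPM, others 30.6 to 38.5 CPM). Tumor sgTaz 5 was high in Mef2b (1.02 CPM, others 0.054 to 0.24 CPM), Hdac9 (9.75 CPM, others 4.52 to 5.89 CPM), B cell genes (277 CPM, others 9.17 to 30.8 CPM), T cell genes (180.4 CPM, others 58.1 to 83.8 CPM) and lymph node stroma and high endothelium genes (503 CPM, others 44.2 to 97.2 CPM). Tumor sgTaz 2 was high in skeletal muscle genes (70.1 CPM, others 14.0 to 20.2 CPM) and epithelial genes (3989 CPM, others 1645 to 2221 CPM). Its muscle sum came mostly from Tnni2 (38.2 CPM) and Tnnt3 (30.3 CPM), while Acta1 and Myh4 were at or near 0 CPM. Tumor sgTaz 1 was low in genes of fibroblasts and mural cells (1461 CPM, others 2714 to 3126 CPM). Mef2a, Mef2c, Mef2d, Hdac4, Hdac5 and Hdac7 had no such tumor in either group.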

How the results depend on the processing

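The log2 fold changes of the 7 fitted members kept their sign in all 20 other fits. The widest ranges on leaving out one tumor were those of Mef2c (-0.77 to -0.29) and Hdac9 (-0.77 to -0.29), both smallest in size without sgCon 3. Mef2a ranged from 0.45 (replicate block with GC content and length offsets) to 0.60. Counts of called genes depended on the tool. Over all genes, edgeR called 1, DESeq2 1070 and limma-voom 1546. EdgeR called 0 with no filter, 5 (Mef2a among them) with at least 10 counts in every tumor, 0 with GC content and length offsets and 0 to 172 on leaving out one tumor, most without sgTaz 5 (172) and sgTaz 2 (75). It called 187 (51 higher, 136 lower) without both sgCon 3 and sgTaz 5, a fit added after the data were seen. Of the members, Mef2a was called and no other: the count was 1 by DESeq2, limma-voom, the filter of 10 counts and the fit without both tumors, and 0 to 1 on leaving out one tumor (1 without sgTaz 2 or sgTaz 5). The difference in Mef2a led to the choice of the families, so these counts restate the selection and nothing is read from them. Of the 65 pathway genes tested, DESeq2 called 5 (7.69%, against 7.22% of all genes). Limma-voom called 11 of them, a larger share than the 10.4% it called over all genes, and the fit without both tumors called 1 (Klf2). With tumor number as a replicate block, edgeR called 0 genes (2462 at an unadjusted p below 0.05), and 0 with GC content and length offsets added. Tumors of equal number correlated at -0.243 to 0.221, and 1 of 5 correlated best with its own number, so no pairing was assumed. With the longest transcript as length, the log2 ratio of Hdac7 to Mef2a was -0.49 in place of 0.53, and that of Hdac9 to Mef2b 1.62. Correlations with B cell genes without sgTaz 5, for which this list was chosen after the data were seen, were 0.377 for Mef2a, -0.094 for Hdac4 and 0.480 for Hdac5. With the longest transcript as length, the share of Mef2a in MEF2 FPKM was 40.7% in sgCon and 56.3% in sgTaz. The cause of these changes was not tested.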
